A study of Mus musculus with 12 samples.

Results

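The genes Enpp6, Neu4, Itpr2, Tcf7l2, Bcas1, Sirt2, Fyn and 9630013A20Rik form a set of 8 genes of committed oligodendrocyte precursors and newly formed oligodendrocytes. They were chosen by symbol, and 7 of the 8 had a row among the 47072 rows of the expression table. 9630013A20Rik, a long noncoding RNA gene annotated antisense to Pcdh17, was not analysed here. Total RNA-seq was carried out on 12 libraries of cells sorted for green fluorescence from heterozygous Pdgfra-H2BGFP mice, a knock-in line in which a nuclear GFP is made from the Pdgfra locus. The 4 groups held 3 libraries each: brain of embryos (E13.5), spinal cord of embryos (E13.5), brain of pups (P7) and spinal cord of pups (P7), where E and P stand for embryonic and postnatal day. All of them shared the line and the sort. According to the methods, brain here means forebrain, cells of several animals were pooled for a library, and GFP can persist into early differentiation after Pdgfra itself is lost. Embryos were dissociated by mechanical means and pups with an enzyme, so the effects of age and of dissociation cannot be told apart.

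Oligodendrocytes arise from precursors that express the receptor Pdgfra. Once committed, a precursor leaves the cell cycle and passes through a short premyelinating stage, in which it extends processes and switches on a transient set of genes, before it makes compact myelin. Enpp6, a choline phosphodiesterase of the cell surface, and Bcas1 are known from this transient stage. Neu4 encodes a sialidase, an enzyme that removes sialic acid from glycans. Itpr2 encodes an inositol trisphosphate (IP3) receptor, a channel that releases calcium from the endoplasmic reticulum. Tcf7l2 is a TCF/LEF transcription factor that carries Wnt signals to DNA. Sirt2 is an NAD-dependent deacetylase found in myelin, and Fyn is a kinase of the Src family that acts during myelination.

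The libraries held between 12566345 and 38790312 reads, recovered from the deposited CPM (read counts scaled to a common library size). With the deposited scaling, 3 reads corresponded to between 0.0792 and 0.5062 CPM. The highest of these values, in E13.5 spinal cord replicate 3, reflects its scaling as well as its depth. Its library size was rescaled by a factor of 0.472, against 0.955 or more in every other library. All CPM values of that library are thus higher than its depth alone would give. It had reads for 21673 genes, against 24488 or more in every other library. Pdgfra ranged from 341 to 787 CPM at E13.5 and from 2014 to 3402 CPM at P7. Hoxc8, a trunk gene, was at 0 in every P7 brain library. E13.5 spinal cord replicate 3 stood apart from the other 2 libraries of its group, with an SD of the log2 ratio over well covered genes of 0.996 and 1.06 against 0.1702 between those 2. At P7, replicates 1 and 2 were much closer to each other (SD of 0.0648 in brain and 0.0675 in spinal cord) than to replicate 3 (0.169 to 0.214). Counts of replicates 1 and 2 differed by more than sampling noise, with a median chi-square of 1.36 (brain) and 1.55 (spinal cord) times that expected. Against replicate 3 it was 4.80 to 5.21 times. This excess cannot show whether replicates 1 and 2 were separate pools. The methods describe 3 pooled biological replicates per group, so all 3 were kept, and a fit with replicates 1 and 2 averaged was added. Nothing in the labels states that replicates came from separate litters, so p-values measure the spread between these libraries.

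In the annotation of the GRCm38 build, Enpp6 lies at chr8:46986887-47096762 on the plus strand, Neu4 at chr1:94020451-94028334 (plus), Itpr2 at chr6:146108299-146502223 (minus) and Tcf7l2 at chr19:55741820-55933654 (plus). Bcas1 lies at chr2:170346991-170427845 (minus), Sirt2 at chr7:28766735-28788661 (plus) and Fyn at chr10:39368855-39565381 (plus). RefSeq promoter windows (GRCm38.p6) were matched for 7 of the 8 genes by symbol, with Bcas1 missing. The 250 bases upstream of the start are printed 5′ to 3′ for the 2 genes that were nearly silent at E13.5, Enpp6 (chr8:46986637-46986886, plus strand) and Neu4 (chr1:94020243-94020492, plus strand), and for 2 that were already active then, Itpr2 (chr6:146502224-146502473, minus strand) and Fyn (chr10:39369549-39369798, plus strand). Capitals mark CG dinucleotides.
Enpp6: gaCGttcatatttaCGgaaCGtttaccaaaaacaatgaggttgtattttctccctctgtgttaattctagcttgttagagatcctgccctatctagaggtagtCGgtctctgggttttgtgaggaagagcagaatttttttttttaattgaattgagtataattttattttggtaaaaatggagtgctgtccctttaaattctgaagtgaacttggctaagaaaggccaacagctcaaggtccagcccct
Neu4: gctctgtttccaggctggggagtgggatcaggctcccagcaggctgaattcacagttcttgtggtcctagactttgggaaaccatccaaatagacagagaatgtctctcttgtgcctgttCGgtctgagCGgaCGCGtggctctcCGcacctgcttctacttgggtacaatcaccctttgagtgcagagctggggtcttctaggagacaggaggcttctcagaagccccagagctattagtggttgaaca
Itpr2: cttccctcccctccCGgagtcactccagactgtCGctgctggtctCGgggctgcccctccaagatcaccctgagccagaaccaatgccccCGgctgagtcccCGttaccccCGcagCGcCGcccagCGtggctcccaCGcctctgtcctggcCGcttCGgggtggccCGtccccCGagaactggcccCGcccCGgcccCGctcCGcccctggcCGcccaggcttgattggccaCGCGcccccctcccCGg
Fyn: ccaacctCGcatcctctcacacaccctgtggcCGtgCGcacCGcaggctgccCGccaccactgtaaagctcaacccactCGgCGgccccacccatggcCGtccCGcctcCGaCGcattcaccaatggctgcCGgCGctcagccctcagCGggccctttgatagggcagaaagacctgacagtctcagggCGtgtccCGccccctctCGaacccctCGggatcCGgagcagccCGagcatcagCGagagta

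The windows of Enpp6 and Neu4 held 4 and 5 CG dinucleotides, and those of Itpr2 and Fyn held 22 and 21. Over 32851 RefSeq promoters the median was 6, with quartiles of 2 and 16. The GC content was 38.4% for Enpp6, 53.6% for Neu4, 74.4% for Itpr2 and 67.2% for Fyn, beside a median of 52.4%. Sirt2 held 13, and the first and second start sites of Tcf7l2 held 30 and 7. The TCF/LEF motif ATCAAAG or its reverse complement CTTTGAT, searched because Tcf7l2 binds such sites, was present once among these windows, 96 bases before the Fyn start. It was present in 3.21% of all promoters. These counts describe the windows only.

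The first question was how these genes changed between E13.5 and P7 in each region. In brain, 6 of 7 genes rose with age, by 2.56 to 7.78 on the log2 scale, and Tcf7l2 did not pass. In spinal cord all 7 passed, with Tcf7l2 only just over the 2-fold limit. A gene was called when limma's Benjamini-Hochberg adjusted p was under 0.05 and the change of log2(CPM + 0.5) exceeded 2-fold. Of the 18319 genes tested, 27.7% were called in brain, 11% as higher at P7 and 16.7% as lower, and 35.1% in spinal cord, 16.9% as higher and 18.2% as lower. The ages did not overlap for 72.6% of all genes in brain (27.8% higher at P7 and 44.9% lower) and for 70.8% in spinal cord (39.9% and 30.8%). The median change over all genes tested was -0.19 in brain and 0.12 in spinal cord, and that of the 7 genes was 3.75 and 4.97. Since the libraries are bulk samples, more cells of a type and more RNA per cell cannot be told apart.

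**Figure D1:**
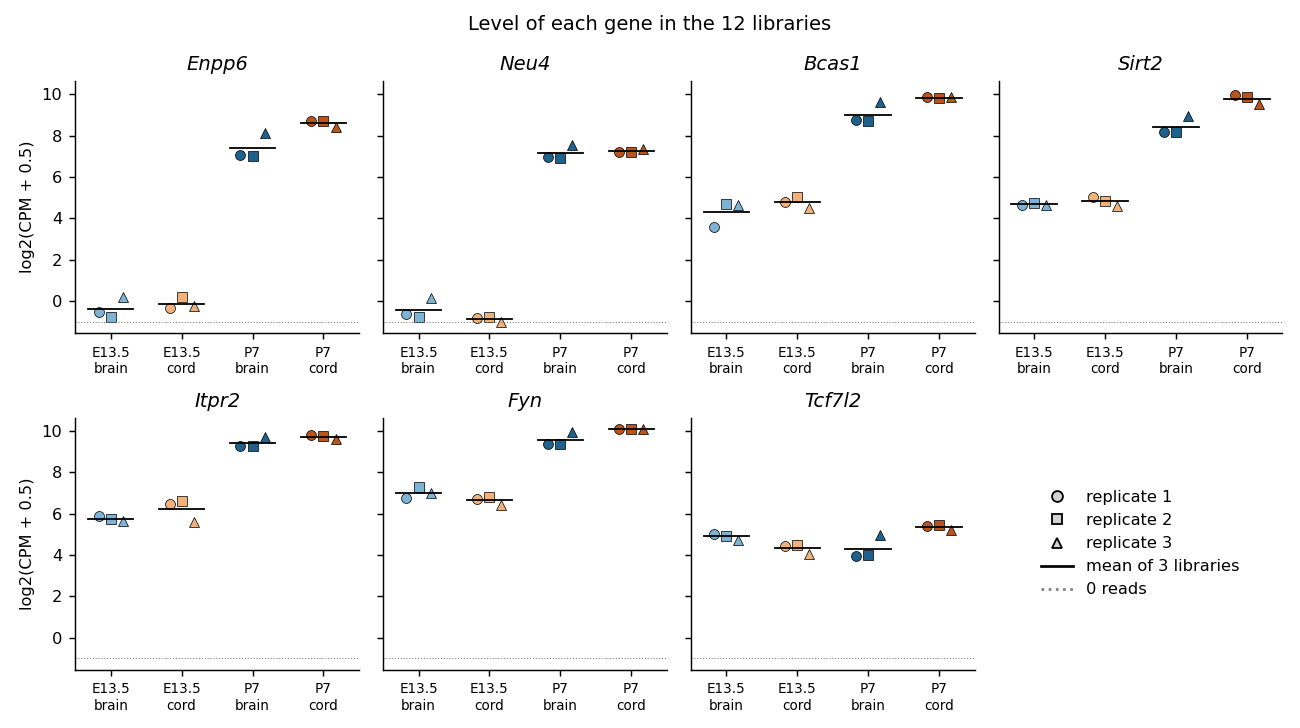
Level of each of the 7 genes in the 12 libraries, as log2(CPM + 0.5), with 1 panel per gene, 1 symbol per library and a bar at the mean of 3 libraries; the dotted line marks 0 reads. Enpp6 and Neu4 sit near the dotted line at E13.5 and far above it at P7, whereas the P7 brain libraries of Tcf7l2 lie on both sides of its E13.5 level.

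Enpp6 was barely detected at E13.5. It measured 0.190, 0.0878 and 0.644 CPM in the 3 E13.5 brain libraries (4, 2 and 12 reads). The embryonic spinal cord libraries held 0.298, 0.622 and 0.337 CPM (5, 14 and 2 reads). The P7 values were 134.9, 129.4 and 282.4 CPM in brain and 416.2, 418.8 and 337.6 CPM in spinal cord. No library of one age overlapped the other age in either region. The log2 change was 7.78 ± 0.30 (SE) in brain (limma adjusted p = 9.21e-10) and 8.74 ± 0.30 in spinal cord (limma adjusted p = 2.86e-10). The added 0.5 CPM holds these changes down. Pooled reads were also compared as a ratio of P7 to E13.5, each sum divided by the summed deposited library sizes of its libraries. This pooled-read ratio was 654 in brain (exact 95% interval 414 to 1104, counting error only) and 844 in spinal cord (552 to 1364). Single libraries held much of the embryonic count, and the ratio was 1377 in brain without replicate 3 and 1272 in spinal cord without replicate 2.

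Neu4 showed the same near absence at E13.5. It measured 0.143, 0.0878 and 0.590 CPM in E13.5 brain (3, 2 and 11 reads). Embryonic spinal cord held 0.0596, 0.0889 and 0 CPM, or 3 reads in all. P7 libraries held 124.4, 119.9 and 186.8 CPM in brain and 147.8, 148.4 and 162.3 CPM in spinal cord. The ages did not overlap, and at P7 the 2 regions did. The change was 7.57 ± 0.22 in brain (limma adjusted p = 2.07e-10) and 8.13 ± 0.22 in spinal cord (limma adjusted p = 1.05e-10). The pooled-read ratio, scaled by library size as for Enpp6, was 572 in brain (352 to 1000.4). In spinal cord it was 2300, where the few embryonic reads left an interval from 787 to 11154. Without replicate 3 the brain ratio was 1283, and without spinal cord replicate 2, which held 2 of the 3 reads, the spinal cord ratio was 3467.

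E13.5 brain replicate 3 gave the highest Enpp6 and Neu4 values of its group. The same library was the highest of its group for 11 of 14 myelinating oligodendrocyte genes, with Mag at 5.20 CPM against 0.570 and 0.0878, and Mobp at 3.91 against 0.665 and 0. Aspa was highest in replicate 1, Opalin had a read in replicate 2 alone, and Klk6 was at 0 in all 3 libraries. These 5 genes were singled out after their values were seen, and their part in the Enpp6 and Neu4 values was not tested. Without this library the brain change of Enpp6 was the highest of the leave-one-out fits, 8.07, and that of Neu4 7.84.

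Bcas1, a gene of premyelinating and early myelinating cells, was already present at E13.5. The embryonic brain libraries held 11.5, 25.1 and 24.1 CPM, and those of spinal cord 27.4, 31.7 and 21.9. At P7 it reached 423.7, 418.9 and 778.2 CPM in brain, with 921.9, 894.1 and 919.3 in spinal cord, so the ages were far apart. The change was 4.72 ± 0.29 in brain (limma adjusted p = 3.22e-08) and 5.07 ± 0.29 in spinal cord (limma adjusted p = 9.97e-09). The low Bcas1 library, E13.5 brain replicate 1, was also the lowest of its group in the summed level of 12 precursor genes, 1356 CPM against 2290 and 2415.

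Sirt2 was nearly even at E13.5, with 24.8, 26.3 and 24.3 CPM in brain and 31.6, 28.5 and 23.6 CPM in spinal cord. At P7 it measured 292.3, 283.0 and 495.8 CPM in brain and 980.9, 943.9 and 737.3 CPM in spinal cord. All P7 libraries were above all E13.5 libraries, and the spinal cord rise was the larger. The change was 3.75 ± 0.19 in brain (limma adjusted p = 8.85e-09) and 4.97 ± 0.19 in spinal cord (limma adjusted p = 6.39e-10), which is 31.3-fold in spinal cord. Sirt2 overlaps Nfkbib on the opposite strand, which averaged 4.53 CPM (brain) and 4.49 CPM (spinal cord) at E13.5, then 11.98 and 22.7 CPM at P7. Use of the strand in counting is not given in the sources used here, and reads of the 2 genes may then be mixed.

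Itpr2 rose by similar amounts in both regions. Its values were 57.5, 52.8 and 48.6 CPM in E13.5 brain, and the embryonic spinal cord held 86.3, 95.4 and 47.7. At P7 the brain libraries reached 624.2, 625.9 and 827.7 CPM, and the spinal cord ones 880.3, 866.2 and 789.3. Every P7 library exceeded every E13.5 library, and the lowest E13.5 spinal cord value came from the library that stood apart. The change was 3.69 ± 0.21 in brain (limma adjusted p = 2.12e-08) and 3.52 ± 0.21 in spinal cord (limma adjusted p = 1.75e-08).

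Fyn had the highest level of the set at E13.5. The embryonic brain libraries held 106.3, 153.2 and 126.0 CPM, and the spinal cord ones 104.2, 110.1 and 84.7. At P7 these were 663.5, 658.8 and 970.3 CPM for brain and 1083, 1075 and 1075 for spinal cord. The ages did not overlap, and its P7 spinal cord libraries were the tightest of the set. The change was 2.56 ± 0.17 in brain (limma adjusted p = 7.59e-08) and 3.44 ± 0.17 in spinal cord (limma adjusted p = 3.65e-09).

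Tcf7l2 behaved differently in the 2 regions. Its brain values were 31.7, 30.0 and 26.2 CPM at E13.5, against 14.8, 15.6 and 30.6 at P7, so that P7 replicates 1 and 2 were below every E13.5 library and replicate 3 was within their range. In spinal cord it measured 21.1, 22.0 and 16.2 CPM at E13.5 and 41.9, 42.7 and 36.1 CPM at P7, with no overlap. The brain change was -0.59 ± 0.22 (limma adjusted p = 0.0367), short of 2-fold and not called. The spinal cord change was 1.01 ± 0.22 (limma adjusted p = 0.00141). It fell under 2-fold in 7 of the 22 alternative settings, among them limma-voom on recovered reads (0.97) and the fit without E13.5 spinal cord replicate 3 (0.88). The fits without a brain library cannot move this change. Ppnr, a noncoding gene inside an intron of Tcf7l2 on the same strand, averaged 12.5 CPM in brain and 10.1 in spinal cord at E13.5, then 3.93 and 9.53 at P7.

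**Figure D2:**
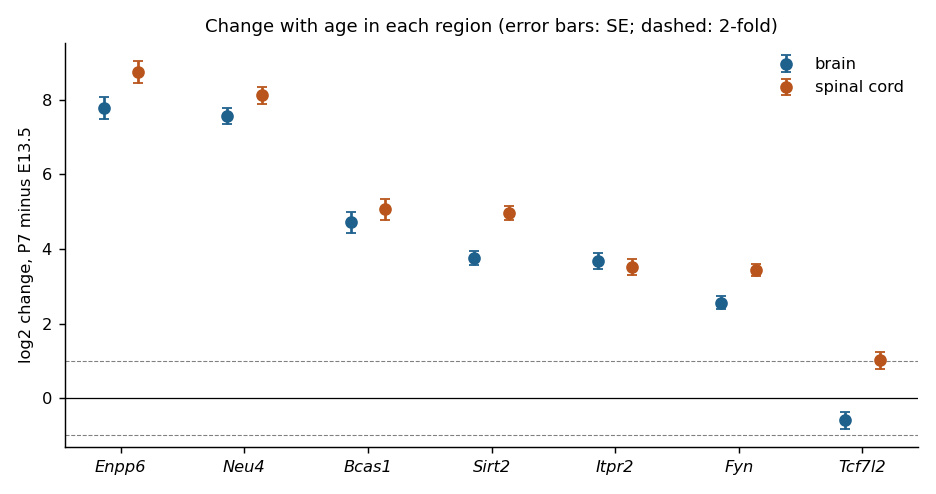
Change with age of each gene, as log2(CPM + 0.5) at P7 minus E13.5, in brain (blue) and spinal cord (orange); bars are SE from limma and dashed lines mark 2-fold. Enpp6 and Neu4 changed most, from 7.57 to 8.74, and Tcf7l2 lies at -0.59 in brain and 1.01 in spinal cord.

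Levels were compared between genes only per kilobase of exon. At E13.5 Fyn led with 29.4 CPM per kilobase in brain and 22.8 in spinal cord, above every library of the other genes. Bcas1 (5.36 and 7.15 CPM per kilobase) and Sirt2 (4.99 and 5.54) followed and overlapped each other in both regions. At P7 Fyn measured 175 in brain and 247 in spinal cord, and Bcas1 143 and 241.5. The libraries of these 2 genes overlapped in brain and did not in spinal cord. Sirt2 then stood at 70.9 CPM per kilobase in brain and 176 in spinal cord. Itpr2 (46.8 in brain, 57.1 in spinal cord), Enpp6 (28.4 and 61.0) and Neu4 (31.0 and 33.0) came next, with Neu4 and Enpp6 overlapping in brain and Enpp6 and Itpr2 overlapping in spinal cord. Tcf7l2 was lowest in both, at 2.32 and 4.58 CPM per kilobase.

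The relatives of each gene in its family were measured beside it, from lists of 3 to 8 genes. The 6 other sirtuins were called in none of the comparisons by limma, limma-voom or edgeR. In brain their changes with age lay between -0.57 for Sirt1 and 0.63 for Sirt7, and 4 of 6 had an unadjusted p under 0.05. Sirt2 made up 16.7% ± 1.07 (SD, n = 3) of the summed CPM per kilobase of the 7 sirtuins in brain at E13.5 and 73.7% ± 5.20 at P7, against 16.0% ± 1.43 and 85.9% ± 1.61 in spinal cord. Sirt1 was the highest sirtuin at E13.5 in both regions.

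The IP3 receptors moved apart with age. Itpr3 fell by 2.79 on the log2 scale in brain (limma adjusted p = 3.78e-08) and changed by -3.40 in spinal cord (limma adjusted p = 4.14e-09). Itpr1 fell by 1.91 in spinal cord (limma adjusted p = 6.98e-05) and changed by -0.86 in brain, short of 2-fold. Itpr2 went from 24.9% ± 2.45 (SD, n = 3) of the summed CPM per kilobase of the 3 receptors in brain at E13.5 to 90.7% ± 0.679 at P7, and from 21.5% ± 2.32 to 93.5% ± 1.69 in spinal cord. Itpr1 was the highest of the 3 at E13.5.

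The other TCF/LEF genes fell with age. In spinal cord Lef1 (-1.89), Tcf7l1 (-2.16) and Tcf7 (-1.32) were all called lower, and in brain Lef1 (-2.85) and Tcf7l1 (-1.85) were, with Tcf7 at -0.61. Tcf7l2 was the highest of the 4 per kilobase in both regions at P7, with 47.5% ± 8.72 (SD, n = 3) of their sum in brain and 64.3% ± 3.70 in spinal cord. It was also the highest in E13.5 brain, with 31.0% ± 1.54. In E13.5 spinal cord its mean was the lowest of the 4, with 19.3% ± 0.796. The mean was 2.25 CPM per kilobase against 3.73 for Tcf7l1, 3.30 for Tcf7 and 2.36 for Lef1. Lef1 overlapped it there, with 14.2 to 24.6 CPM against 16.2 to 22.0 for Tcf7l2.

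Among sialidases, Neu1, the lysosomal enzyme, changed by 0.79 in brain and 0.97 in spinal cord, and Neu3 by -0.54 and 0.03. Neither was called by limma, limma-voom or edgeR, with unadjusted p under 0.05 for both in brain and for 1 in spinal cord. Neu2 was under the filter. Neu4 held 1.39% ± 1.43 (SD, n = 3) of the summed CPM per kilobase in brain at E13.5 and 82.1% ± 2.72 at P7, against 0.209% ± 0.194 and 79.0% ± 1.43 in spinal cord.

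Enpp2, which encodes autotaxin, remained the highest gene of the Enpp family in all 4 groups. It rose by 1.83 in brain (limma adjusted p = 1.65e-06) and 2.85 in spinal cord (limma adjusted p = 1.94e-08). Enpp4 and Enpp5 were also called higher in both regions, by 1.83 to 3.85, and Enpp3 was called lower in both. Enpp6 made up 16.95% ± 5.31 (SD, n = 3) of the summed CPM per kilobase of the family at P7 in brain and 20.6% ± 0.29 in spinal cord. Enpp7 was listed at 0 in all 12 libraries.

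Within the Src family, Fyn was the highest kinase per kilobase in every group. Its share of the family's summed CPM per kilobase was 49.3% ± 3.35 (SD, n = 3) for brain and 43.7% ± 6.09 for spinal cord at E13.5, and 78.3% ± 3.99 and 81.4% ± 0.0541 at P7. Lyn was called higher with age in both regions, by 2.54 in brain and 1.48 in spinal cord. Src and Yes1 rose by 1.09 each in spinal cord and changed by 0.62 and 0.37 in brain, short of 2-fold. Lck was called lower in brain (-1.86).

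**Figure D3:**
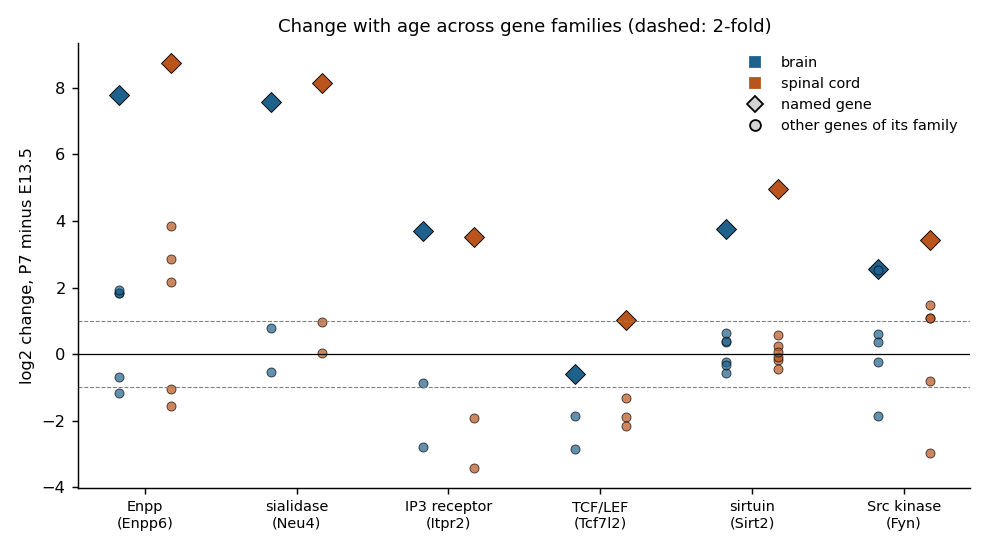
Change with age (log2, P7 minus E13.5) of the genes of 6 families in brain (blue) and spinal cord (orange); diamonds are Enpp6, Neu4, Itpr2, Tcf7l2, Sirt2 and Fyn and circles are the other tested genes of each family. In spinal cord every diamond lies above all circles of its family, and in brain the Fyn diamond (2.56) is level with Lyn (2.54).

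The second question was whether brain and spinal cord cells differed in these genes. At E13.5 none of the 7 was called by limma, limma-voom or edgeR, beside 8.71% of all genes, 3.53% as higher in brain and 5.17% as lower. The differences, brain minus spinal cord, ran from -0.47 for Itpr2 and Bcas1 to 0.56 for Tcf7l2. In the limma fit 2 of the 7 had an unadjusted p under 0.05 and none an adjusted p under 0.05. For Itpr2 the adjusted p was 0.0368 by limma-voom, and without E13.5 spinal cord replicate 3 its limma difference was -0.77 (adjusted p = 0.000379), short of 2-fold in both. Tcf7l2 was the 1 gene of the 7 whose regions did not overlap, with all brain libraries higher (limma adjusted p = 0.074), where 37.7% of all genes did not overlap, 20.5% with brain higher and 17.2% with brain lower. The 2 genes near 0 rested on few reads, 18 in brain against 21 in spinal cord for Enpp6 and 16 against 3 for Neu4. Neu4 was called higher in brain with a pseudocount of 0.1 (1.13, limma adjusted p = 0.0496).

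At P7, 3 of the 7 genes were called lower in brain than in spinal cord, Sirt2, Tcf7l2 and Enpp6, beside 6.62% of all genes called, 4.35% as lower and 2.27% as higher. All 7 differences were negative with the deposited scaling, with a median of -0.82 against -0.19 over all genes tested. The brain and spinal cord libraries did not overlap for 5 of the 7, all lower in brain, where 61.7% of all genes did not overlap, 49.4% being lower in brain and 12.3% higher. The deposited scaling of the 3 P7 brain libraries was 13.1% to 16.3% above the trimmed mean of M values (TMM) scaling recomputed from the recovered reads, and that of the other 9 libraries was equal to it. With TMM scaling the median over all genes was -0.02, Neu4 turned to 0.07, and only Sirt2 was called.

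Sirt2 differed most at P7, by -1.35 ± 0.19 (limma adjusted p = 0.000282), or 2.55-fold. The brain libraries stood at 32.9%, 31.9% and 55.9% of the spinal cord mean. The call held in all 22 alternative settings, with differences from -1.61 to -1.11. The fits without an E13.5 library leave the P7 difference itself unchanged and can alter only its p-value.

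Enpp6 differed by -1.19 ± 0.30 (limma adjusted p = 0.0102), its brain libraries being at 34.5%, 33.1% and 72.3% of the spinal cord mean. It was called in 16 of the 22 alternatives, which include the fits without an E13.5 library that cannot move this difference. The call was lost with P7 replicates 1 and 2 averaged, with TMM or median-ratio scaling and with a pseudocount of 0.1. It was also lost without P7 brain replicate 1 or 2. With P7 replicates 1 and 2 averaged into 1 value the difference was -0.96 (limma adjusted p = 0.144), and with TMM scaling it was -0.999.

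Tcf7l2 differed by -1.04 ± 0.22 (limma adjusted p = 0.00433), with brain libraries at 36.7%, 38.9% and 76.0% of the spinal cord mean. It was called in 15 of the 22 alternatives, which again include the fits without an E13.5 library that cannot move this difference. The call was lost with TMM (-0.86) and median-ratio scaling (-0.81). The averaged replicates gave -0.84 (limma adjusted p = 0.0796), edgeR on recovered reads gave -0.98, and the fits without P7 brain replicate 1 or 2 or P7 spinal cord replicate 2 gave -0.86, -0.90 and -0.998.

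Bcas1 and Fyn had an adjusted p under 0.05 but did not reach 2-fold. Bcas1 differed by -0.82 ± 0.29 (limma adjusted p = 0.0479), and without P7 brain replicate 3 it was called at -1.11. Fyn differed by -0.52 ± 0.17 (limma adjusted p = 0.0375). Both were lower in every brain library than in any spinal cord library.

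Itpr2 (-0.30 ± 0.21, limma adjusted p = 0.322) and Neu4 (-0.12 ± 0.22, limma adjusted p = 0.744) did not pass, and their regions overlapped. The highest Neu4 value of all 12 libraries was in P7 brain replicate 3, at 122% of the spinal cord mean.

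P7 brain replicate 3 was above the mean of replicates 1 and 2 for all 7 genes, by ratios from 1.32 for Itpr2 to 2.14 for Enpp6. The ratio was 2.01 for Tcf7l2, 1.85 for Bcas1, 1.72 for Sirt2, 1.53 for Neu4 and 1.47 for Fyn, beside a median of 1.01 over all genes tested. Of those 18319 genes, 9634 were higher in this library. In the same library 15 of 15 other committed and newly formed oligodendrocyte genes were higher (median ratio 1.62), as were 14 of 14 myelinating oligodendrocyte genes (2.12), whereas 2 of 12 precursor genes were (0.926). All 5 microglia markers tested (2.06) and 8 of 8 vascular and leptomeningeal markers (1.48) were higher in it too. In P7 spinal cord, replicate 3 was above the mean of replicates 1 and 2 for 2 of the 7 genes, Neu4 and Bcas1 (ratio 1.01). It was above both libraries for 1, Neu4. Over the 18319 genes tested, replicate 3 was above that mean for 8112 (median ratio 0.983). It was higher for 3 of 15 other committed and newly formed genes (median ratio 0.743) and 2 of 14 myelinating genes (0.760). It was also higher for 9 of 12 precursor genes (1.04), 6 of 8 vascular and leptomeningeal markers (1.91) and 1 of 5 microglia markers (0.452). The part of these markers in the 7 genes' values was not tested.

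**Figure D4:**
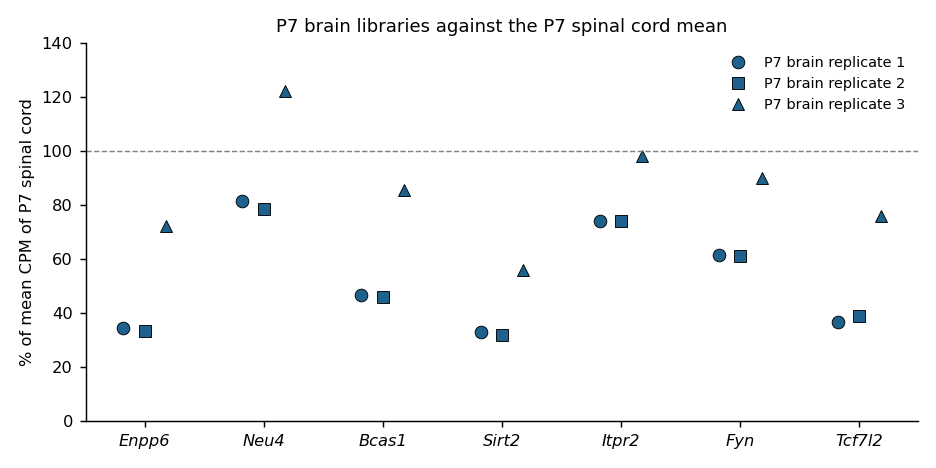
CPM of each P7 brain library as a percentage of the mean of the 3 P7 spinal cord libraries, for each gene; the dashed line marks 100%. Replicates 1 and 2 lie close together, from 31.9% for Sirt2 to 81.4% for Neu4, and replicate 3 lies higher for all 7 genes, from 55.9% to 122%.

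The genes were set beside genes of the stages before and after them. Of 15 other committed and newly formed oligodendrocyte genes, 10 were called lower in P7 brain than in P7 spinal cord and none higher, with a median difference of -1.33. Among the most abundant of these, Nfasc, a cell adhesion gene, differed by -2.03 and Gpr17, a receptor of committed precursors, by -0.39 without a call. Of 12 precursor genes, 1 was called higher in brain and none lower (median 0.13), with Pdgfra at 0.57. Of 14 myelinating oligodendrocyte genes, all were called lower in brain (median -3.51), with Mbp at -2.93, Cnp at -2.23 and Mag at -4.03. The differences of the 7 genes, from -1.35 to -0.12, lay between the medians of the precursor and the myelinating lists. That interval also holds the median of all genes tested (-0.19), so lying within it does not set a gene apart. Neu4 (-0.12) and Itpr2 (-0.30) lay near the median of all genes. The summed level of the 7 genes at P7 was 2251 to 3572 CPM (brain) and 4057 to 4472 CPM (spinal cord). That of the myelinating list was 2428 to 5334 and 23263 to 31067 CPM, and that of the precursor list 9299 to 10619 and 7725 to 7926 CPM.

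**Figure D5:**
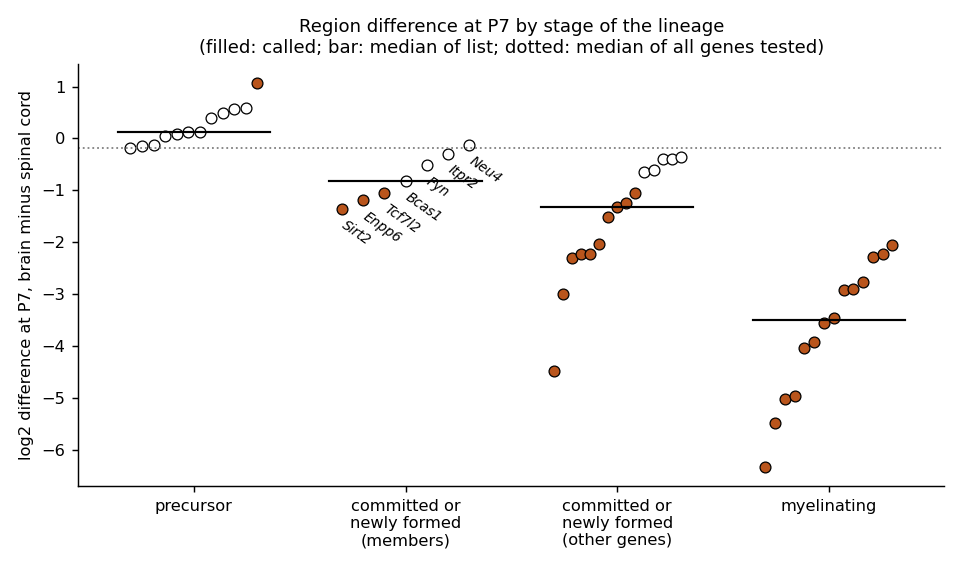
Difference at P7, brain minus spinal cord in log2(CPM + 0.5), for 12 precursor genes, the 7 named genes, 15 other committed or newly formed oligodendrocyte genes and 14 myelinating genes. Filled points were called, solid bars are list medians (0.13, -0.82, -1.33 and -3.51) and the dotted line is the median of all genes tested (-0.19).

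The same lists moved with age as follows. All 12 precursor genes were called higher at P7 in both regions. Of the 15 other committed and newly formed genes, brain had 9 higher and 2 lower calls and spinal cord 13 higher calls, with Prom1 (-2.13) and Cemip2 (-1.69) the ones lower in brain. Of the 14 myelinating genes, brain had 8 higher and 2 lower calls and spinal cord 14 higher calls.

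Markers of other cell types that a Pdgfra sort could hold were summed per library. The 8 neuron markers went from 730 to 910 CPM at E13.5 to 394 to 464 CPM at P7. With age, 3 of them were called lower in brain and none higher. In spinal cord 5 were called lower and 1, Elavl3, higher, from a mean of 59.9 to 168 CPM. The 8 vascular and leptomeningeal markers were at 2681 to 3837 CPM (brain) and 5485 to 5959 CPM (spinal cord) at E13.5, then 717 to 948 and 654 to 1322 CPM at P7. The 6 astrocyte markers were at 890 to 1194 CPM (brain) and 971 to 1007 CPM (spinal cord) at E13.5, then 591 to 653 and 326 to 388 CPM at P7, with 4 called higher and 1 lower with age in brain and 3 higher and 2 lower in spinal cord. The 6 microglia markers were at 18.8 to 30.1 CPM (brain) and 43.3 to 70.9 CPM (spinal cord) at E13.5, then 27.1 to 56.4 and 15.7 to 22.5 CPM at P7. Tmem119 alone averaged 17.4 CPM (brain) and 44.0 CPM (spinal cord) at E13.5, then 6.63 and 10.9 CPM at P7. The E13.5 sums thus mostly follow this gene. Of the 5 microglia markers tested, 4 were called higher and 1, Tmem119, lower with age in brain. In P7 brain, 4 were called higher than in P7 spinal cord. The 5 endothelial markers were at 47.7 to 76.2 CPM (brain) and 87.3 to 111 CPM (spinal cord) at E13.5, then 26.1 to 34.1 and 20.7 to 25.4 CPM at P7. No marker of these lists was at 0 in all libraries of a group, and their part in the changes of the 7 genes was not tested.

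The third question was whether the region difference changed with age. The P7 difference less the E13.5 one was called for 2 of the 7 genes, both in the negative direction, beside 16.3% of all genes called, 9.66% in that direction and 6.66% in the other. Tcf7l2 changed by -1.61 ± 0.32 (limma adjusted p = 0.00177), from 0.56 at E13.5 to -1.04 at P7. Its call held in all 22 alternatives, with values from -1.94 to -1.28. Sirt2 changed by -1.21 ± 0.27 (limma adjusted p = 0.004), from -0.14 to -1.35, and its call was lost with median-ratio scaling (-0.88). Fyn (-0.88, limma adjusted p = 0.0127) fell short of 2-fold, and Enpp6 (-0.96, limma adjusted p = 0.0899), Neu4 (-0.56), Bcas1 (-0.35) and Itpr2 (0.17) did not pass. Without P7 brain replicate 3 Fyn (-1.06) and Enpp6 (-1.32) were called as well. Enpp6 was also called with a pseudocount of 1 (-1.05). On recovered reads its adjusted p was 0.714 by edgeR and 0.875 by limma-voom, and its E13.5 levels rested on few reads. Of the 12 precursor genes, 3 were called in the negative direction and 1 in the positive. In the other lists, 10 of 15 other committed and newly formed genes and 14 of 14 myelinating genes were called in the negative direction.

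The genes most like each of the 7 in pattern were found among 14348 tested genes with names, as those with the smallest root mean square difference of centred log2(CPM + 0.5) over the 12 libraries. Enpp6 was nearest to Plxnb3 (0.44), Pllp (0.45) and Neu4 (0.52). Neu4 was nearest to Pllp (0.32), Enpp6 (0.52) and Plxnb3 (0.62). Pllp, which encodes a tetraspan protein of myelin, went from 0.951 (brain) and 0.540 CPM (spinal cord) at E13.5 to 202 and 346 CPM at P7. Bcas1 was nearest to the glutamate transporter gene Slc1a1 (0.24), then to Zfp488 (0.30) and Dbndd2 (0.35). Sirt2 was nearest to Dbndd2 (0.14), Cdk18 (0.25) and Shisal1 (0.32). Itpr2 was nearest to Me3 (0.22), Kank1 (0.22) and Slc7a3 (0.25), and Fyn to Igsf9b (0.20), Cadm4 (0.20) and Sez6l (0.20). Tcf7l2 had no other gene of the set near it, its closest being Fyn at 1.42, and was nearest to D16Ertd472e (0.21), Rpp40 (0.22) and Kmt5a (0.24). The libraries share their groups, so a likeness mostly measures the 4 group levels and is given as a description.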

How the data were processed

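Total RNA-seq was measured in 12 libraries. Per the study's methods and processing notes, stranded libraries were aligned with STAR 2.5.0a to mm10 (GRCm38) and reads were counted per GENCODE M8 gene with featureCounts 1.5.0-p1, with reads that mapped to several places shared out and the sums rounded. The authors deposited CPM per gene, each count divided by a library size rescaled by a normalization factor, not logged. For 3 of the 12 columns the sum exceeds what plain CPM allows, and these were entered as a signal, deposited by the authors on the same scale. Whole reads were recovered for 100% of the values (tolerance 0.001), and no column was left out (0 not used). Depth was 12566345 to 38790312 reads per library, and intervals on reads cover counting error only.

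Groups and replicate numbers came from the sample titles. The 18319 genes that reached 0.7 CPM in 3 or more libraries were tested on log2(CPM + 0.5) with limma 3.58.1 (intensity trend, 1 mean per group) in R 4.3.3, for 5 contrasts, with Benjamini-Hochberg adjustment over all genes. Calls required an adjusted p under 0.05 and more than 2-fold. Since the table holds CPM, limma-trend stood in for the voom fit of the study's methods, which was run on the recovered reads as an alternative. Other alternatives were edgeR 4.0.16 (quasi-likelihood) on those reads, TMM and median-ratio scaling, pseudocounts of 0.1 and 1, no filter, no fold threshold, a replicate block, P7 replicates 1 and 2 averaged, and each library left out. Pooled-read ratios without each E13.5 library were added after seeing the data. The fits were tested on simulated data.

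The 8 genes and the 14 lists were chosen with earlier results of these data known. Text names the 8 genes, the genes of their families, up to 4 genes of highest mean CPM per list, those singled out as such, and for each gene the 3 most like it in pattern. Symbols, positions and exon lengths came from GENCODE M21 (GRCm38), with 46491 of 47072 rows matched to a symbol, and promoter sequences from RefSeq (GRCm38.p6).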

Additional observations from a re-analysis of the deposited data

Results flagged for a closer look

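The region difference of 2 genes changed with age by the test of that change itself. For Tcf7l2 the difference of brain minus spinal cord at P7 minus that at E13.5 was -1.61 on the log2 scale (limma Benjamini-Hochberg adjusted p = 0.00177), with all 3 brain libraries above all 3 spinal cord libraries at E13.5 and below them at P7. For Sirt2 the change of the region difference was -1.21 (limma adjusted p = 0.004). Its regions overlapped at E13.5, and all 3 brain libraries were below all 3 spinal cord libraries at P7. P7 brain replicate 3 held 2.01 (Tcf7l2) and 1.72 (Sirt2) times the mean of the other 2 brain libraries. Both changes passed the threshold without that library and with P7 replicates 1 and 2 averaged. The Sirt2 change was no longer called with median-ratio scaling (-0.883, limma adjusted p = 0.0233), and the Tcf7l2 change was called in all 22 alternatives.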

How the results depend on the processing

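With age, 6 genes were called in brain in every alternative that kept the fold threshold, and 6 or 7 in spinal cord. At P7, 1 gene in place of 3 was called lower in brain with P7 replicates 1 and 2 averaged, with TMM and with median-ratio scaling, 5 without a fold threshold, and 1 to 4 over the fits that left out a library (1 without P7 brain replicate 1 or 2, 4 without P7 brain replicate 3). The change of the region difference was called for 1 gene in place of 2 with median-ratio scaling and for 2 to 4 over the leave-one-out fits. At E13.5, 1 gene in place of 0, Neu4, was called with a pseudocount of 0.1. Neu4 at P7 turned from -0.12 to 0.0729 with TMM and 0.119 with median-ratio scaling, and the change of the region difference of Itpr2 went from 0.169 to -0.0207 without E13.5 spinal cord replicate 2 and to 0.475 without replicate 3; none of these was called. Without a fold threshold, 11227 and 12822 genes were called with age in brain and spinal cord, 5979 and 5491 between regions at E13.5 and P7, and 7290 for the change with age in that difference. edgeR on recovered reads called 6159, 7501, 2082, 1645 and 3261 genes in the same order, against 5068, 6436, 1595, 1213 and 2990. Replicate numbers are shared between groups. Deviations of same-numbered libraries from their group means had correlations from 0.0820 to 0.412 between the E13.5 groups. Their mean was 0.270, against -0.131 for differently numbered E13.5 libraries. Deviations cancel within a group, so these 2 means are not independent. The same-numbered correlations ran from 0.0127 to 0.0445 between the P7 groups and from -0.213 to 0.0873 between E13.5 and P7 brain. The fit with a replicate block called the same numbers of the 7 genes (6, 7, 0, 3 and 2). It shares 1 replicate effect over all 4 groups, so it cannot exclude pairing within E13.5. Limits: 3 libraries per group, of which 2 at P7 are very alike in each region; 1 E13.5 spinal cord library that stands apart; few reads of Enpp6 and Neu4 at E13.5; and a deposited P7 brain scaling that moves all brain differences at P7. The cause of these changes was not tested.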
